A study of Mus musculus with 7 samples.

Results

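Long noncoding RNAs are transcripts that act without being translated, and 10 genes that are well known in the heart or that mark its stromal cells were followed here through myocardial infarction: Malat1, Neat1, Meg3, Rian, Mirg, H19, Kcnq1ot1, Dnm3os, Gas5 and Snhg1. They were chosen by name, with earlier results of these data known, and all 10 were found among the 56980 genes of the expression table. The samples were myocardial tissues of wild-type male C57BL/6J mice, bought at 8 weeks of age and acclimated for 1 week. The MI group (3 mice) had the left coronary artery tied and was sampled after 4 days, and the sham-operated group (4 mice) had the same surgery without ligation. Both groups therefore share the opened chest, and each mouse gave 1 library of total RNA. The labels call the samples of both groups myocardial tissue, and the study describes that of the MI mice as ischemic.

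These genes work in several ways. Malat1 and Neat1 stay in the nucleus, where Malat1 gathers in nuclear speckles and Neat1 builds the paraspeckle. Meg3, Rian and Mirg are read from the maternal chromosome of the imprinted Dlk1-Dio3 locus and carry arrays of microRNAs and small nucleolar RNAs (snoRNAs), H19 is the maternal partner of Igf2, and Kcnq1ot1 is the paternal antisense RNA that silences its neighbours. Gas5 and Snhg1 are snoRNA host genes, whose introns give the guide RNAs of ribosomal RNA modification, and Dnm3os is the precursor of the miR-199a and miR-214 microRNAs of mesenchymal cells.

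The libraries held between 19977714 and 23610869 sequenced fragments. MI replicate 2 stood apart from the other infarcted mice: its values correlated with the sham libraries at 0.984 to 0.987 on the log2(FPKM + 1) scale, against 0.878 to 0.906 for MI replicates 1 and 3. The fold changes of the 10 genes below are therefore given with and without it. The choice rested on the expression values themselves and removes the MI mouse nearest to sham. It leaves MI replicates 1 and 3 alone, so p-values without MI replicate 2 are descriptive. Mitochondrial genes took 26.5% to 27.4% of the fragments in sham hearts, and 13.6%, 28.2% and 14.9% in MI replicates 1, 2 and 3. The summed FPKM of 9 cardiomyocyte markers ranged from 13619 to 14909 over the sham mice and was 9505, 13566 and 10196 in MI replicates 1 to 3, and that of 8 fibroblast markers was 122 to 145 in sham hearts and 2492, 232 and 1923 in MI hearts. For 6 macrophage markers the sums were 117 to 155 and then 797, 142 and 689, for 5 proliferation genes 2.56 to 3.78 and then 13.7, 2.89 and 11.6, and for 5 endothelial markers 121 to 140 and then 152, 115 and 162. The 6 skeletal muscle genes summed to 741 to 1072 in sham and 761 to 934 in MI hearts, with Myh4 at 0 in every mouse and Myh1 at 0 in some. In the fit of fragment counts described below, 7 of 9 cardiomyocyte markers were lower, and 8 of 8 fibroblast, 6 of 6 macrophage, 2 of 5 proliferation and 1 of 5 endothelial genes higher, at an unadjusted p under 0.05, where 7.87% of all genes were lower and 28.4% higher. After scaling each mouse by its median log-ratio the counts were 5 of 9 lower and 8 of 8, 6 of 6 and 3 of 5 higher, with 0 endothelial genes higher and 1 lower, against 18.7% of all genes lower and 18.8% higher. In bulk tissue, fewer cells of a type and less RNA per cell cannot be told apart, and the part of these shifts in the values below was not tested.

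Levels were compared between genes as FPKM (fragments per kilobase, scaled to the library's total) recomputed over the merged exons of each gene, because the gene lengths behind the deposited FPKM values are longer than the merged exons, by 16.1 times for Gas5 and 7.53 times for H19. On this scale the 10 genes covered more than 3 orders of magnitude in sham hearts. Malat1 stood first with 260 ± 47.0 (SD, n = 4), and Neat1 followed with 23.8 ± 2.81. Gas5 at 5.55 ± 0.183, H19 at 2.42 ± 1.03, Snhg1 at 1.22 ± 0.0558 and Meg3 at 0.953 ± 0.143 came next, with no overlap between neighbours in this order. Rian at 0.401 ± 0.0564 and Dnm3os at 0.306 ± 0.111 overlapped, as did Mirg at 0.0721 ± 0.0115 and Kcnq1ot1 at 0.0545 ± 0.00513. In MI hearts the order was the same except that Meg3, at 7.84 ± 5.49 (SD, n = 3), passed Snhg1, at 3.26 ± 1.39, and every neighbour below Malat1 overlapped the next. Kcnq1ot1 is annotated as 1 unspliced transcript of 93092 bases, so that its low level per kilobase still came from 96 to 127 fragments in each sham mouse.

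**Figure D1:**
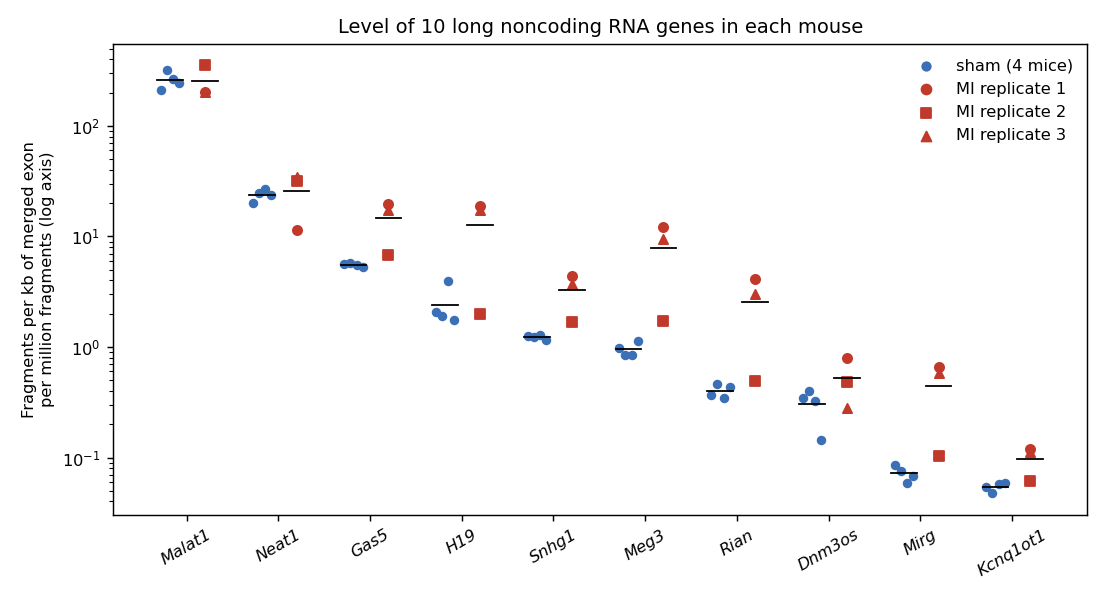
Level of each gene as FPKM over its merged exons (log axis), with 1 point per mouse and a black line at the group mean. Malat1 and Neat1 lie above all others in sham hearts, and the MI points of Meg3, Rian, Mirg, H19, Gas5 and Snhg1 spread upward from MI replicate 2 to replicates 1 and 3.

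The first question was which of these RNAs differ between infarcted and sham myocardium. Meg3, Rian, Mirg, Gas5, Snhg1 and Kcnq1ot1 were higher in every MI mouse than in every sham mouse, H19 was higher in MI replicates 1 and 3 alone, and Malat1, Neat1 and Dnm3os overlapped between the groups. This makes 6 of 10 genes with no overlap, against 17.8% of the 16465 genes with at least 10 fragments in at least 3 mice, while 0 of 10 lay below every sham mouse, as 7.2% of genes did. Because the 10 were picked with earlier results of these data known, this and the later shares among them are descriptive. The planned test, limma on log2(FPKM + 1) of genes with at least 1 FPKM in at least 3 mice, covered 2 of the 10, Malat1 and Neat1, and called 0 of 2 in either direction at an adjusted p under 0.05, where 0.0175% of 11431 genes were called higher and 0.00875% lower. Neither passed an unadjusted 0.05, where 29.5% of genes were higher and 9.85% lower, and both overlapped between the groups, where 16.1% of genes lay above and 9% below every sham mouse.

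All 10 could be tested on the fragment counts recovered from the FPKM values, since each had at least 10 fragments in every mouse. In this limma-voom fit, which was added after the values were seen, 0 of 10 passed at an adjusted p under 0.05, as did few genes in all (0.0304% higher and 0.00607% lower). At an unadjusted p under 0.05, 6 of 10 were higher (Meg3, Rian, Mirg, Kcnq1ot1, Gas5 and Snhg1) and 0 were lower, against 28.4% and 7.87% of all genes. The median log2 fold change was 1.27 over the 10 genes and 0.35 over all genes tested. Without MI replicate 2, 7 of 10 rose at an adjusted p under 0.05 (the same 6 and H19) and 0 fell, where 57.9% of all genes rose and 11.8% fell. At an unadjusted p under 0.05 the count was again 7, against 60% higher and 12.5% lower, and the medians were 1.72 and 0.53. Leaving out any other mouse gave 5 of 10 higher at that p, or 4 without sham replicate 2, where 8.81% to 15.6% of all genes were higher. The shift of all genes is part of each fold change: after scaling each mouse by its median log-ratio, the median of all genes was 0.00 and that of the 10 was 0.94. With all 7 mice scaled in this way, 6 of 10 were higher and 0 lower at an unadjusted p under 0.05, against 18.8% and 18.7% of all genes. After adjustment 0 of 10 passed, against 0.0547% higher and 0.0182% lower.

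**Figure D2:**
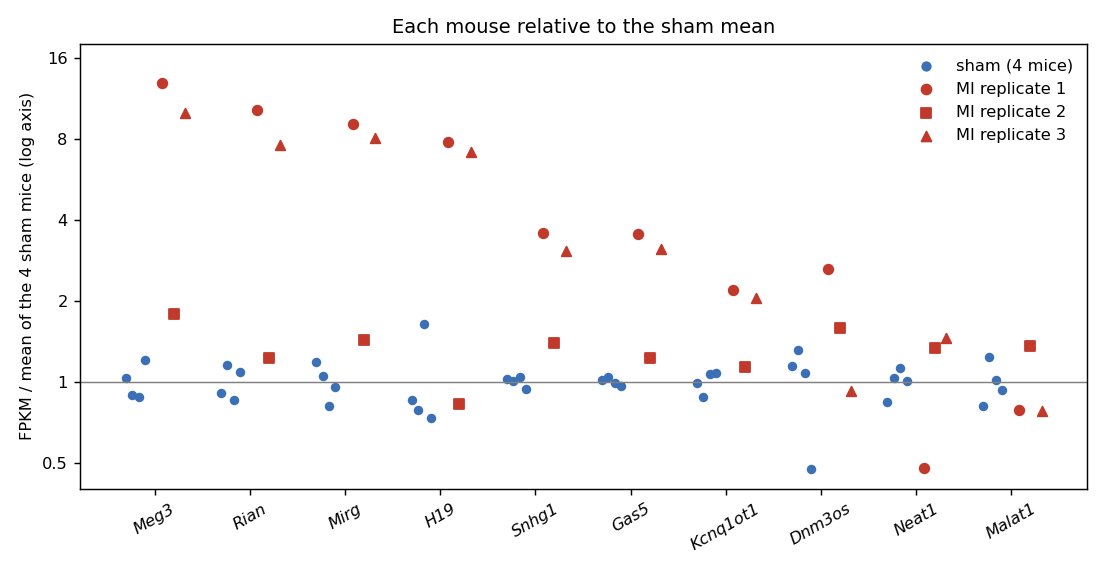
FPKM of each mouse divided by the mean of the 4 sham mice (log axis), with 1 point per mouse. MI replicates 1 and 3 lie at 7.12 to 12.9 times the sham mean for Meg3, Rian, Mirg and H19, while MI replicate 2 lies at 0.824 to 1.79 times.

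**Figure D3:**
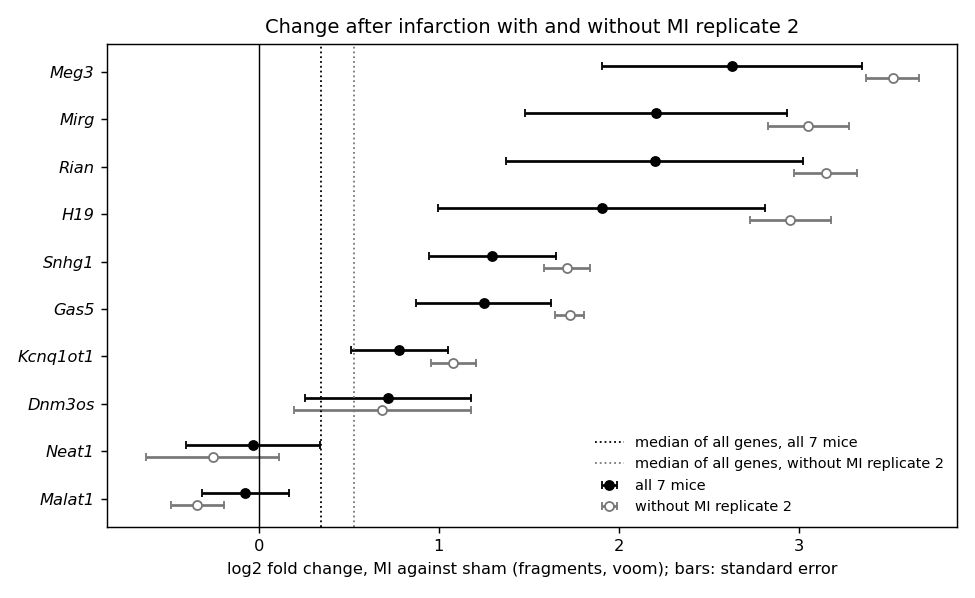
Log2 fold change of MI against sham from the fragment counts, with bars of 1 standard error, for all 7 mice (filled) and without MI replicate 2 (open). Dotted lines mark the median of all genes tested in each fit, and Malat1 and Neat1 lie to the left of both lines.

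The Dlk1-Dio3 locus on chromosome 12 (GRCm38) held the 3 of the 10 genes with the highest ratio of the MI to the sham mean, 8.23 for Meg3, 6.35 for Rian and 6.19 for Mirg. Meg3 (chr12:109541001-109571726, plus strand), a nuclear RNA that binds chromatin-modifying complexes, had 0.448, 0.385, 0.381 and 0.520 FPKM in sham replicates 1 to 4 and 5.59, 0.774 and 4.34 FPKM in MI replicates 1 to 3. These values came from 332 to 413 fragments per sham mouse and 697 to 4840 per MI mouse. The MI mice did not overlap the sham mice, but MI replicate 2 lay at 1.79 times the sham mean and the other infarcted hearts at 12.9 and 10.01 times. The log2 fold change was 2.63 ± 0.72 (SE; limma-voom, unadjusted p = 0.00732, adjusted p = 0.124), and 3.52 ± 0.15 without MI replicate 2 (limma-voom, adjusted p = 1.49e-06).

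Rian (chr12:109603940-109661716), the snoRNA-bearing transcript downstream of Meg3, had 0.0844, 0.107, 0.0796 and 0.1005 FPKM in sham hearts and 0.952, 0.113 and 0.704 in MI hearts. MI replicate 2 was 1.22 times the sham mean and only just above the highest sham value. Its log2 fold change was 2.20 ± 0.82 (limma-voom, adjusted p = 0.125), or 3.15 ± 0.17 without that mouse (limma-voom, adjusted p = 4.85e-06). Mirg (chr12:109729764-109749460), which carries the microRNA cluster at the far end of the locus, had 0.0521, 0.0462, 0.0355 and 0.0418 FPKM in sham and 0.398, 0.0626 and 0.353 in MI hearts. It was the shallowest of the 10, with 10 to 14 fragments in each sham mouse and 104, 17 and 100 in MI replicates 1, 2 and 3, so that the value of MI replicate 2 rests on 3 fragments more than the highest sham count. Its log2 fold change was 2.21 ± 0.73 (limma-voom, adjusted p = 0.124), or 3.05 ± 0.23 without MI replicate 2 (limma-voom, adjusted p = 1.73e-05).

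Whether the RNAs of the locus changed in step was asked within each mouse. For every 100 Meg3 fragments there were 37.3, 55.1, 41.3 and 38.3 Rian fragments in sham replicates 1 to 4 and 33.7, 29.0 and 32.1 in MI replicates 1 to 3. All 3 MI mice, replicate 2 among them, lay below all 4 sham mice. The log2 ratio of Meg3 to Rian fragments was 1.24 ± 0.26 (SD, n = 4) in sham and 1.66 ± 0.11 (n = 3) in MI hearts, a difference of 0.43 (two-sided exact permutation test, p = 0.0571, adjusted p = 0.2 over 7 pairs of genes). That p is the smallest that the 35 splits of 7 mice allow, so that no pair could pass 0.05. Mirg gave 2.42 to 3.61 fragments per 100 Meg3 fragments in sham and 2.15 to 2.45 in MI hearts, which overlapped (difference in the log2 ratio of Meg3 to Mirg 0.38, exact permutation p = 0.171, adjusted p = 0.3). On the planned log2(FPKM + 1) scale, which for genes under 1 FPKM follows the level as much as the ratio, the differences were 0.97 for Meg3 minus Rian and 1.195 for Meg3 minus Mirg (exact permutation p = 0.0571 each).

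The protein-coding genes of the same locus were listed at or near 0 in sham hearts. Dlk1, the paternally expressed ligand, had 2, 4, 0 and 3 fragments in sham replicates 1 to 4 and 11, 3 and 29 in MI replicates 1 to 3, and Rtl1, a retrotransposon-derived gene, was at or under 0.0866 FPKM in every mouse. Dio3, the deiodinase that inactivates thyroid hormone, was listed at 0 in 3 sham mice and at 0.0576 FPKM in the other, against 0.515, 0.0254 and 0.341 FPKM in MI replicates 1 to 3. None of these 3 genes reached 10 fragments in 3 mice, and they entered only the fit with no filter on low values (limma, adjusted p = 0.188 for Dio3). The microRNAs encoded within Mirg include the only 2 of the 41 mature microRNAs hosted by these genes that share a seed (bases 2 to 8, in capitals), which are shown for that reason (RefSeq, GRCm38.p6, chr12:109735669-109735692 and chr12:109739132-109739152, plus strand).
mmu-miR-453: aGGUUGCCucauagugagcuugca
mmu-miR-496a-5p: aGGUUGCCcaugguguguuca

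H19 (chr7:142575529-142578143, minus strand), an imprinted RNA of growing tissues, had 0.274, 0.251, 0.524 and 0.235 FPKM in sham replicates 1 to 4 and 2.50, 0.265 and 2.29 FPKM in MI replicates 1 to 3. MI replicate 2 lay inside the sham range, at 0.824 times the sham mean, and sham replicate 3 stood above the other sham mice. The log2 fold change was 1.90 ± 0.91 (SE; limma-voom, unadjusted p = 0.071, adjusted p = 0.159), and 2.95 ± 0.23 without MI replicate 2 (limma-voom, adjusted p = 1.96e-05). Igf2, the growth factor gene that shares enhancers with H19, had 1.52, 1.64, 1.77 and 1.32 FPKM in sham and 3.11, 1.21 and 4.20 in MI hearts (log2 fold change 0.69 ± 0.41, limma-voom, adjusted p = 0.228, and 1.21 ± 0.15 without MI replicate 2, adjusted p = 0.000195). Per 100 Igf2 fragments there were 25.4, 21.6, 41.8 and 25.0 H19 fragments in sham and 113, 30.7 and 76.7 in MI hearts. MI replicates 1 and 3 exceeded every sham mouse in this ratio and MI replicate 2 did not (difference in the log2 ratio 1.23, two-sided exact permutation p = 0.114, adjusted p = 0.267). On the log2(FPKM + 1) scale the groups did not overlap, with a difference of 0.39 (exact permutation p = 0.0571, adjusted p = 0.1).

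The first exon of H19 carries miR-675, whose mature forms are given with the seed in capitals because they are the known products of this RNA (RefSeq, GRCm38.p6, chr7:142577112-142577133 and chr7:142577078-142577099, minus strand). The Mir675 gene itself was listed at 1 fragment in every mouse of both groups, so its row held no difference.
mmu-miR-675-5p: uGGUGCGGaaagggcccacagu
mmu-miR-675-3p: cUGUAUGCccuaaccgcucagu

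**Figure D4:**
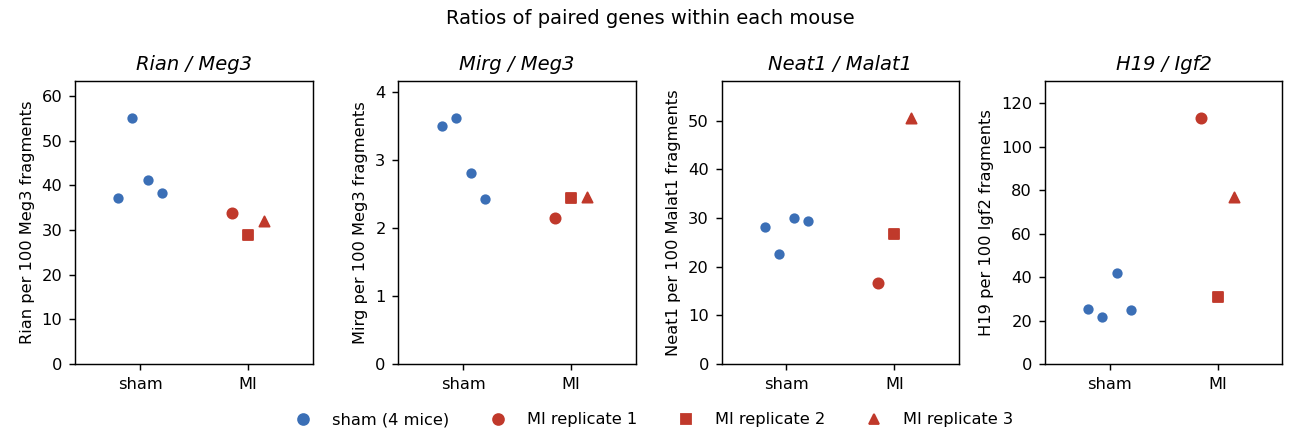
Fragments of 1 gene per 100 fragments of its partner within each mouse (linear axes from 0), with 1 point per mouse. Rian per Meg3 is below the sham range in all 3 MI mice, and Neat1 per Malat1 runs from 16.6 in MI replicate 1 to 50.6 in MI replicate 3 around a sham range of 22.6 to 30.1.

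Kcnq1ot1 (chr7:143203458-143296549, minus strand) runs antisense through the potassium channel gene Kcnq1, and 121 bases are exonic in both. Strand-specific counting is not stated in the sources used here, and without it reads from Kcnq1 and from its antisense RNA cannot be told apart. Kcnq1ot1 had 0.0536, 0.0475, 0.0581 and 0.0586 FPKM in sham and 0.119, 0.0617 and 0.111 in MI hearts, with no overlap and MI replicate 2 at 1.13 times the sham mean. Its log2 fold change of 0.78 ± 0.27 (SE; limma-voom, unadjusted p = 0.0211, adjusted p = 0.124) became 1.08 ± 0.12 without MI replicate 2 (limma-voom, adjusted p = 0.000146). After median log-ratio scaling of all mice it was 0.46 ± 0.15 (limma-voom, adjusted p = 0.0984). Kcnq1, which repolarises the cardiomyocyte, ran the other way, with 11.5, 11.5, 11.9 and 11.7 FPKM in sham and 8.06, 10.6 and 7.99 in MI hearts. The log2 ratio of Kcnq1ot1 to Kcnq1 fragments was -3.39 ± 0.12 (SD, n = 4) in sham and -2.20 ± 0.75 (n = 3) in MI hearts, above the sham range in all 3 MI mice (difference 1.19, two-sided exact permutation p = 0.0571, adjusted p = 0.2).

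Among 14 imprinted neighbours of these loci, fixed as a list, 9 had enough fragments, of which 4 were higher and 1 lower at an unadjusted p under 0.05, against 28.4% and 7.87% of all genes (limma-voom, 0 of 9 at an adjusted p under 0.05). The lower one was Kcnq1, at a log2 fold change of -0.40 ± 0.13. The higher ones were the transporter gene Slc22a18 (1.82 ± 0.45), the tetraspanin Tspan32 (2.20 ± 0.73), Tssc4 (1.09 ± 0.37) and the lipid transfer gene Osbpl5 (0.96 ± 0.33). Slc22a18 had 7 to 14 fragments per sham mouse and 18 to 49 per MI mouse, and Tspan32 had 6 to 11 and 14 to 101. Both reached the fragment minimum only through the MI mice, where they were high, so the filter itself favoured their place in this count. Cdkn1c, a cell cycle inhibitor that Kcnq1ot1 is known to silence on the paternal chromosome, had 4.13, 2.83, 3.19 and 2.95 FPKM in sham and 2.38, 3.22 and 3.06 in MI hearts, which overlapped (log2 fold change -0.18 ± 0.19). In a list of 18 imprinted growth genes, 15 had enough fragments and 4 of these, or 26.7%, were higher at an unadjusted p under 0.05, near the 28.4% of all genes (Grb10 at 0.63 ± 0.19, Ndn at 1.48 ± 0.51, Peg3 at 1.25 ± 0.44 and Sgce at 0.88 ± 0.36), with 0 lower and 0 at an adjusted p under 0.05. Their median of 0.63 compares with 0.35 over all genes, and 13 of 15 rose without MI replicate 2, where 57.9% of all genes did.

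Of the 10 genes, Gas5 and Snhg1 had the smallest SD relative to the mean in sham hearts. Gas5 (chr1:161034422-161038539, plus strand), an RNA that accumulates in growth-arrested cells, had 0.351, 0.357, 0.340 and 0.332 FPKM in sham and 1.22, 0.423 and 1.07 in MI hearts. Snhg1 (chr19:8723475-8726443, plus strand) had 0.179, 0.176, 0.183 and 0.164 FPKM in sham and 0.625, 0.243 and 0.536 in MI hearts. In both genes all 3 MI mice exceeded all 4 sham mice, and MI replicate 2 was at 1.23 and 1.39 times the sham mean against 3.05 to 3.56 times in the other infarcted hearts.

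The fold changes of both host genes lay close together. Gas5 had a log2 fold change of 1.25 ± 0.37 (SE; limma-voom, unadjusted p = 0.0112, adjusted p = 0.124), or 1.73 ± 0.08 without MI replicate 2 (limma-voom, adjusted p = 2.43e-06). Snhg1 had 1.298 ± 0.354 (limma-voom, unadjusted p = 0.00711, adjusted p = 0.124), or 1.71 ± 0.13 without that mouse (limma-voom, adjusted p = 1.85e-05). Within each mouse the log2 ratio of Gas5 to Snhg1 fragments was 2.52 ± 0.06 (SD, n = 4) in sham and 2.47 ± 0.11 (n = 3) in MI hearts, a difference of -0.0545 that was within the spread of either group (two-sided exact permutation p = 0.4, adjusted p = 0.56). On the log2(FPKM + 1) scale the difference had the other sign, 0.16 (exact permutation p = 0.171), with MI replicate 2 inside the sham range.

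Gas5 and Snhg1 belong to the terminal oligopyrimidine class, whose transcripts open with a C and a run of C or T bases. Their start regions are shown to illustrate this letter pattern. The windows were picked for opening with it, so its presence in both is not a result of these data. RefSeq (GRCm38.p6) listed start windows for 8 of the 10 genes, and a C followed by C or T to a run of at least 3 bases, read on the transcribed strand from the first transcribed base, stood at the start in 5.8% of all 32851 windows. The 50 bases before and the 50 from the start site on are given for chr1:161035116-161035215 and chr19:8723437-8723536, plus strand, with that run in capitals. The other window listed for Gas5 did not open with such a run, and the Snhg1 run is no longer than the minimum of 3 bases.
Gas5: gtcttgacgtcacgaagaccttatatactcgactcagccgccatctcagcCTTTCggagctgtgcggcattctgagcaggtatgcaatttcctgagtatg
Snhg1: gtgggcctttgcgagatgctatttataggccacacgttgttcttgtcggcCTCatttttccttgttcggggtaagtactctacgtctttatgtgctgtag

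Of 18 other snoRNA host genes fixed as a list, 15 were in the table and 13 had enough fragments. At an unadjusted p under 0.05, 7 were higher and 1 lower, against 28.4% and 7.87% of all genes (limma-voom, 0 at an adjusted p under 0.05), with a median log2 fold change of 0.97 against 0.35 over all genes. In 2 of 13 (15.4%) every MI mouse lay above every sham mouse, against 17.8% of all genes. The higher ones with the smallest p were Snhg8 (1.24 ± 0.38), Snhg18 (1.94 ± 0.59), Snhg12 (1.26 ± 0.42), Zfas1 (1.04 ± 0.37) and Snhg3 (1.08 ± 0.40). The lower one was Snhg14, the neuronal host gene of the Prader-Willi locus, with 0.344, 0.272, 0.283 and 0.317 FPKM in sham and 0.128, 0.249 and 0.159 in MI hearts (-0.81 ± 0.25). Without MI replicate 2, 12 of 13 rose and Snhg14 fell at an adjusted p under 0.05, where 57.9% of all genes rose and 11.8% fell.

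Dnm3os (chr1:162217623-162225550, plus strand) runs antisense inside the span of the dynamin gene Dnm3, with 0 exon bases in common. It had 0.152, 0.175, 0.143 and 0.0632 FPKM in sham and 0.348, 0.211 and 0.123 FPKM in MI replicates 1 to 3, from 23 to 69 fragments per sham mouse and 138, 87 and 53 per MI mouse. The groups overlapped because MI replicate 3 lay below 3 of the 4 sham mice, while MI replicate 1 was 2.61 times the sham mean. MI replicates 1 and 3, which differed by at most 1.35 times for the other genes here except Neat1, differed by 2.82 times for Dnm3os. The log2 fold change was 0.72 ± 0.46 (SE; limma-voom, adjusted p = 0.254), and 0.68 ± 0.49 without MI replicate 2 (limma-voom, adjusted p = 0.245). It was 1.10 without MI replicate 3, 0.35 without MI replicate 1 and 0.41 without sham replicate 4, at adjusted p-values of 0.343, 0.627 and 0.48 (limma-voom). After median log-ratio scaling of all mice it was 0.34 ± 0.46 (limma-voom, adjusted p = 0.584).

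The partners of Dnm3os were higher in both MI replicates 1 and 3. Twist1, a mesenchymal transcription factor known to drive Dnm3os, had 0.438, 0.736, 0.497 and 0.584 FPKM in sham and 5.84, 0.678 and 5.49 in MI hearts (log2 fold change 2.31 ± 0.86), its relative Twist2 0.116, 0.144, 0.243 and 0.195 and then 0.703, 0.218 and 0.681 (1.46 ± 0.51), and Dnm3 0.218, 0.170, 0.128 and 0.133 and then 0.301, 0.188 and 0.326 (0.73 ± 0.28). All 3 passed an unadjusted 0.05 in the limma-voom fit, as 28.4% of all genes did in this direction, and 0 of 3 passed after adjustment. After median log-ratio scaling 2 of 3 passed the unadjusted threshold, as 18.8% of all genes did, with Dnm3 at 0.40 ± 0.20. Without MI replicate 2 all 3 rose at an adjusted p under 0.05, as 57.9% of all genes did (3.33 ± 0.20 for Twist1, 2.00 ± 0.28 for Twist2 and 0.98 ± 0.20 for Dnm3). The log2 ratio of Dnm3os to Dnm3 fragments was -0.98 ± 0.57 (SD, n = 4) in sham and -0.97 ± 0.92 (n = 3) in MI hearts, a difference of 0.00906 that was within the spread of either group (two-sided exact permutation p = 0.971, adjusted p = 0.971). The microRNAs of Dnm3os, shown with their seeds in capitals as the known products of this RNA, stand in 2 genes, Mir199a-2 and Mir214 (RefSeq, GRCm38.p6, plus strand, at chr1:162217844-162217866, chr1:162217883-162217904, chr1:162223397-162223418 and chr1:162223438-162223459). Both genes were listed at 1 fragment in every mouse, so their rows do not show which way the microRNAs moved.
mmu-miR-199a-5p: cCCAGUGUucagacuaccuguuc
mmu-miR-199a-3p: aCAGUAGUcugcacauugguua
mmu-miR-214-5p: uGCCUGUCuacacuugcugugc
mmu-miR-214-3p: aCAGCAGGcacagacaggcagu

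Malat1 and Neat1, neighbours on chromosome 19, overlapped between the groups, with fold changes smaller than their standard errors. Malat1 (chr19:5795690-5802672, minus strand) had 141, 216, 177 and 163 FPKM in sham and 136, 237 and 136 in MI replicates 1 to 3. It shares 453 exon bases with Gm37376, a gene model on the opposite strand, whose reads cannot be told apart without strand. MI replicates 1 and 3 lay just below the lowest sham mouse of Malat1 and MI replicate 2 above the highest. The log2 fold change was -0.08 ± 0.24 (SE; limma on log2(FPKM + 1), unadjusted p = 0.763, adjusted p = 0.814), and -0.34 ± 0.15 in the fragment fit without MI replicate 2 (limma-voom, adjusted p = 0.07). Its 3 nearest genes by pattern over the 7 mice were Pcdhga2, Btbd6 and Arhgap20, at root mean square differences of 0.12 to 0.14 on the log2(FPKM + 1) scale centred on the sham mean.

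Neat1 (chr19:5824708-5845478, minus strand) had 16.04, 19.6, 21.5 and 19.2 FPKM in sham and 9.12, 25.4 and 27.6 FPKM in MI replicates 1 to 3. MI replicate 1 lay below and MI replicates 2 and 3 above the whole sham range, so that the infarcted hearts spread on both sides of the sham hearts (SD 10.1 in MI, 2.25 in sham). The log2 fold change was -0.02 ± 0.35 (limma, adjusted p = 0.965), 0.46 ± 0.13 without MI replicate 1 (limma, adjusted p = 0.338) and, in the fragment fit without MI replicate 2, -0.26 ± 0.37 (limma-voom, adjusted p = 0.555). MI replicate 1 had 0.330 times the FPKM of MI replicate 3, from 5145 against 16900 fragments. Neat1 fragments per 100 Malat1 fragments were 28.2, 22.6, 30.1 and 29.3 in sham and 16.6, 26.7 and 50.6 in MI hearts, and the log2 ratio of Malat1 to Neat1 fragments was 1.87 ± 0.19 (SD, n = 4) in sham and 1.83 ± 0.81 (n = 3) in MI hearts (difference -0.044, two-sided exact permutation p = 0.971, adjusted p = 0.971). The genes nearest to Neat1 in pattern were Ptgds, Rlf and Vps37c, at 0.18 to 0.23. TPM scaling turned both signs positive, to 0.12 for Malat1 and 0.17 for Neat1, and other scalings moved both further below 0: to -0.35 and -0.27 with the median log-ratio, -0.22 and -0.27 with quantile normalization, and -0.21 and -0.14 with mitochondrial genes left out. Under these scalings neither gene passed the threshold.

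The protein partners of these bodies were counted as well. Of 16 paraspeckle proteins, 7 were higher and 0 lower at an unadjusted p under 0.05, against 29.5% and 9.85% of all genes (limma on log2(FPKM + 1), 0 at an adjusted p under 0.05), led by Pspc1 (0.41), Rbm14 (0.34), Taf15 (0.33), Tardbp (0.28) and Nono (0.54). Of 11 nuclear speckle proteins 3 were higher, Srrm1 (0.30), Srrm2 (0.36) and Srsf1 (0.23), a share of 27.3% that is near that of all genes, and 0 were lower. The medians of 0.32 and 0.33 compare with 0.21 over all genes, and after scaling by the median log-ratio 1 of 16 and 0 of 11 were higher and 1 of 16 and 0 of 11 lower at that p, against 19.4% and 19.5% of all genes. Fold changes on this scale understate the change of genes near the pseudocount of 1.

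The 10 genes were also set beside long noncoding RNAs at large. Of the 974 genes with a long noncoding biotype and enough fragments, 14.7% were higher at an unadjusted p under 0.05 and 12.2% lay above every sham mouse, against 28.4% and 17.8% of all genes, and their median log2 fold change was 0.19 against 0.35. A further 9.24% were lower, against 7.87% of all genes, and after median log-ratio scaling 10.2% were higher, 22.1% lower and the median was -0.16, against 18.8%, 18.7% and 0.00 for all genes. In the planned fit, which covered 256 of them, 16% were higher and 21.9% lower, with a median of -0.11 against 0.21 over all genes. Of a list of 27 other named long noncoding RNAs, 23 were in the table and 17 had enough fragments. At an unadjusted p under 0.05, 4 of 17 (23.5%) were higher and 1 (5.88%) lower, against 28.4% and 7.87% of all genes. After median log-ratio scaling 2 were higher and 2 lower, against 18.8% and 18.7% of all genes. Airn, the antisense RNA of Igf2r, had 0.794, 0.801, 0.837 and 0.837 FPKM in sham and 1.21, 1.12 and 1.21 in MI hearts (log2 fold change 0.53 ± 0.13), and here MI replicate 2 lay with the other infarcted hearts. Mir22hg (0.98 ± 0.34), Firre (0.38 ± 0.14) and Tug1 (0.55 ± 0.23) were the others that were higher at an unadjusted p under 0.05. Hand2os1, which lies upstream of the cardiac factor gene Hand2, was the lower one, with 1.19, 1.34, 1.58 and 1.12 FPKM in sham and 0.769, 1.09 and 0.712 in MI hearts (-0.63 ± 0.19), and none passed after adjustment in the limma-voom fit.

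The small RNA genes inside the 10 hosts could not be read as expression. The annotation places 47 of them there, 22 microRNAs and 25 snoRNAs, of which 43 had a value above 0 in some mouse, 1 reached 10 fragments in any mouse and 14 were listed at exactly 1 fragment in every mouse. Rows of that kind were common among small RNAs, at 187 of 895 microRNA and snoRNA rows above 0 against 105 of 29609 other rows. Summed over all 47, sham mice had 46, 36, 36 and 33 fragments and MI mice 57, 36 and 68. Whether the processed microRNAs and snoRNAs followed their hosts was not tested.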

How the data were processed

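Myocardial RNA of 7 mice was sequenced, and groups were taken from the treatment label. The authors deposited 1 table of FPKM values (fragments per kilobase, scaled to library depth) with 56980 Ensembl genes. Per the labels' processing notes, CASAVA 1.8, HISAT2, SAMtools 1.3.1, edgeR and mm10 were used; the annotation, counting program and strand setting are not given in the sources used here. Symbols and coordinates came from GENCODE M21 (GRCm38; 91.5% of IDs matched), and sequences from RefSeq. Differences were tested with limma 3.58.1 in R 4.3.3 on log2(FPKM + 1), for genes with at least 1 FPKM in at least 3 mice, two-sided, with Benjamini-Hochberg adjustment and no covariate. Whole fragments were recovered from the FPKM steps for 30504 of 30504 genes above 0 (their sums were 99.92% to 99.95% of the inferred depth) and used for voom with at least 10 fragments in at least 3 mice, an alternative added after seeing the data. In simulated data of 11431 genes with the pooled spread of these mice, limma called 136 of 200 changed genes and 9 unchanged ones (190 and 16 with the sham spread), and voom called 176 of 200 and 9 among 16465 genes at an assumed dispersion of 0.02. Ratios within mice were compared by exact permutation. The lengths behind the FPKM exceeded the merged exons for 95.5% of genes with several transcripts, by a median of 1.40 times. Named genes were the 10 members, their hosted small RNAs, fixed neighbours, up to 5 genes per list and direction with the smallest p, and the 3 nearest patterns. Members and lists were chosen with earlier results of these data known. Alternatives were other scalings, filters, pseudocounts, weights and leaving out each mouse. Replicate numbers did not pair the groups (correlations of same-numbered deviations between -0.08 and 0.07). Nothing states that p-values cover more than the spread between these 7 mice, 1 library each.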

Additional observations from a re-analysis of the deposited data

Results flagged for a closer look

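H19 in sham hearts had 1 mouse far from the others: sham replicate 3, at 0.524 FPKM against 0.235 to 0.274 in the other 3, with a gap that was 0.864 of the group's whole range. The value rests on 228 fragments against 87 to 114. Of 17 sets of sham values examined in this way 1 stood out, where chance alone gives about 1 in 20, or 0.85 sets.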

How the results depend on the processing

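Counts were lowest for Mirg, with 10 to 14 fragments per sham mouse. The planned FPKM minimum left out 8 of the 10 RNAs, while 6 of the 10 passed it with FPKM over merged exons. The count of 0 higher and 0 lower held under every other alternative run, with these exceptions. Estimated sample weights gave 1 higher and 1 lower (Neat1 at 0.50, adjusted p = 0.00104, and Malat1 at -0.38, adjusted p = 0.00299, with weights of 0.0906, 0.0217 and 437 for MI replicates 1 to 3, in a fit that called 66.8% of all genes higher and 20.3% lower). Leaving out 1 mouse in the fragment fit gave 0 to 7 higher. The 7 came without MI replicate 2, where 57.9% of all genes were higher and 11.8% lower. The direction of Meg3, Rian, Mirg, H19, Kcnq1ot1, Dnm3os, Gas5 and Snhg1 stayed positive in every setting run. Malat1 turned positive under TPM (0.12) and, in the planned and the fragment fit, without sham replicate 2 (0.0331 and 0.0334), MI replicate 1 (0.0559 and 0.0574) or MI replicate 3 (0.0586 and 0.0573), and its values with 1 mouse left out ran from -0.34 to 0.0586. Neat1 turned positive under TPM (0.17), at 0.0358 and 0.0241 without sham replicate 3 and at 0.46 and 0.48 without MI replicate 1, in the planned and the fragment fit, and with 1 mouse left out ran from -0.29 to 0.46 and from -0.32 to 0.48 in these fits. The cause was not tested.

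With the replicate number as a block, 0 of the 10 passed after adjustment in either direction. In the fragment fit 7 of 10 rather than 6 were higher at an unadjusted 0.05, where 22.8% of all genes were higher with the block and 28.4% without. With the block Malat1 was at -0.10 and Neat1 at -0.02 in the planned fit, and at -0.11 and -0.05 in the fragment fit. The correlations of same-numbered mice were 0.07, -0.02 and -0.08, so the numbers name samples and do not pair them, and the block changed no call at an adjusted p under 0.05. H19 was the RNA added at the unadjusted threshold (limma-voom, adjusted p = 0.163 with the block and 0.159 without).

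Among the differences within mice, Malat1 minus Neat1 ran from -0.40 (without MI replicate 1) to 0.35 (without MI replicate 3) and was 0.0382 without sham replicate 2, against -0.0547 with all mice. Dnm3os minus Dnm3 ran from -0.0686 (without MI replicate 1) to 0.0765 (without MI replicate 3), was 0.00209 without sham replicate 3 and 0.00906 as a fragment ratio, against -0.0164. Gas5 minus Snhg1 was -0.0545 as a fragment ratio, against 0.16. None of these differences could pass 0.05 with all mice.

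Median log-ratio scaling, which moved the median of all genes from 0.21 to 0.01, changed the counts at an unadjusted p under 0.05 to 1 of 7 higher of the imprinted neighbours (median 0.0318), 1 higher and 1 lower of 16 paraspeckle proteins (0.0700), 0 higher of 11 nuclear speckle proteins (0.0742), 1 higher and 2 lower of 7 other long noncoding RNAs (-0.20), and 28 higher and 95 lower of 262 annotated ones, where 19.4% of all genes were higher and 19.5% lower. Without MI replicate 2, 58.6% of all genes were higher and 15.6% lower at that p. The counts higher were then 4 of 7 of the neighbours (57.1%), 10 of the imprinted growth genes, 15 of the paraspeckle and 10 of the speckle proteins. Of 7 other long noncoding RNAs 3 were higher and 2 lower. Of 239 annotated ones 67 were higher and 96 lower, against 41 and 56 of 256 with all mice.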

Other observations

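Peg13, an imprinted RNA and 1 of the 27 other long noncoding RNAs, had 12.7, 12.5, 12.6 and 12.7 FPKM in sham replicates 1 to 4, 12.0 and 11.9 in MI replicates 1 and 3, and 1.51 in MI replicate 2. It was singled out after its values were seen. MI replicate 2 also lay below every sham mouse for Mest, a paternally expressed hydrolase gene, with 2.42, 2.37, 2.08 and 1.78 FPKM in sham and 8.24, 1.39 and 8.73 in MI hearts, and for Igf2, while it lay above every sham mouse for Grb10, an adaptor of insulin signalling, with 11.7, 11.1, 12.8 and 12.2 FPKM in sham and 21.9, 13.3 and 21.7 in MI hearts.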
